A study of Mus musculus with 61 samples.

Results

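This account compares adipose gene expression in the mouse strains Cast and PWK with that in the strains 129, AJ, B6, NOD, NZO and WSB. The libraries were chosen by strain label alone, which gave 15 of the 61 libraries for the pair (7 of Cast and 8 of PWK) and 46 for the comparison side (7 each of 129 and AJ, and 8 each of B6, NOD, NZO and WSB). The difference of a gene is the mean of the 2 strain means minus the mean of the 6 strain means, on the log2 scale and with its standard error, so that each strain counts equally. All 8 strains are founders of the Diversity Outbred population, and all mice had been given a high-fat, high-sugar diet with 45 percent fat. No group was left on another diet. Sex, age and fat depot are not in the labels, nor do the labels say whether libraries of 1 strain came from separate mice in every case, so p-values measure the spread between these libraries.

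House mice fall into several subspecies. Cast descends from Mus musculus castaneus and PWK from Mus musculus musculus, while the genomes of the other strains are mostly of Mus musculus domesticus origin. WSB is the wild-derived strain on the domesticus side, and the remaining strains are classical inbred lines. The comparison therefore asks which transcripts set the castaneus and musculus founders apart from the domesticus ones. White fat holds lipid-filled adipocytes and a stroma of progenitor, endothelial and immune cells, and in some depots heat-producing adipocytes rich in mitochondria.

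Total counts ran from 31185720 to 49261569 in Cast and PWK and from 19851552 to 61277574 in the other strains. Among genes that define fat cells, Adipoq, the adiponectin gene, differed by 0.13 ± 0.16 and Plin1, which coats the lipid droplet, by -0.04 ± 0.13. Cidec (-0.21 ± 0.12), another droplet protein gene, and Fabp4 (-0.002 ± 0.097), the adipocyte fatty acid carrier, were not called either. Cast replicates 5 and 6 stood apart: the mean log2 CPM of 24 mature adipocyte genes was 7.2 and 7.94 there, against 9.25 to 9.94 in the other Cast libraries and 8.32 to 9.93 in the 46. Adipoq was called higher without these libraries (0.33), and Cidec was called lower without Cast replicate 1 (-0.34). Lep, the leptin gene, was called in the full set. It ran from 0.72 to 169 CPM (counts scaled to library size) in Cast (median 69.9), from 121 to 3566 CPM in PWK (median 656) and from 5.37 to 3130 CPM in the 46 others (median 1364). Its difference was -2.05 ± 0.46 (adjusted p = 0.000155), made up of -4.03 in Cast and -0.07 in PWK. Lep was low in WSB too, and without WSB the difference was -2.69.

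Most of the transcriptome differed between the sides. Of 18603 genes tested, 5950 were higher in Cast and PWK (percent called 32) and 5103 were lower (27.4), which is 59.4% in all. The median difference over all genes was 0.04, and 1411 genes (7.58%) were higher and 1551 (8.34%) lower by at least 1 on the log2 scale. Taken alone, Cast had 5666 genes higher (30.5%) and 5036 lower (27.1%) than the 6 strains, and PWK had 4801 higher (25.8%) and 3792 lower (20.4%). These comparisons share their 46 libraries. Cast and PWK differed from each other in 8335 genes (44.8%). The test takes its error from libraries within strains. With the 8 strain means as the only data points, 2 against 6, 269 genes were called, 103 higher and 166 lower. Of 189 genes followed by name, 140 lost their call this way. All 269 were among the genes described next.

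In 3056 genes (16.4%) both strain means lay beyond those of all 6 others, 1443 of them above (7.76%) and 1613 below (8.67%). As these genes were picked on the difference itself, their sizes are a description. The median difference in size was 0.71 above and 0.90 below, and the median gap to the nearest of the 6 was 0.15 and 0.20. Cast and PWK also differed from each other in 333 of the genes above (23.1%) and in 504 of those below (31.2%), against 44.8% of all genes. The rule keeps only genes with both strains on the same side, so these shares do not measure how alike the strains are. WSB was the nearest of the 6 strains in 1131 of the 3056 genes (37%), NZO in 483 (15.8%), and each of the other 4 in 319 to 417. Without WSB, 3044 genes lay above the remaining 5 strains and 2674 below. Along the chromosomes, the next gene after one that lay above was also above in 158 of 1440 cases (11%, against 7.75% of all autosomal and X-linked genes). After one that lay below, the next gene was below in 215 of 1609 cases (13.4%, against 8.67%). At the limit stood Stat5b, a transcription factor gene just inside by 2.16e-05 on the log2 scale.

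A stricter set was formed by 104 genes (0.559%) in which all 15 libraries lay beyond all 46, 42 of them above (0.226%) and 62 below (0.333%). In 62 of the 104 (59.6%) the deposited estimates shared reads with similar genes, against 22.1% of all genes tested. Sharing reads means here that the estimate was not a whole number in over 50% of libraries. The other 42 genes, 13 above and 29 below, are described first. Of these, Mx2, St6galnac5 and Dfna5 met the rule for named genes, and the rest were chosen after their values were seen. At the limit of this set, Cdc26 lay inside by 0.000952 on the log2 scale, while the vomeronasal receptor gene Vmn2r26 lay at 0 and so outside.

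Chrnb4 (chr9:55028156-55048544, minus strand, GRCm38) encodes a subunit of nicotinic acetylcholine receptors and had the largest positive difference of the 42. It ran from 2.73 to 13.5 CPM in Cast (median 9.76) and from 4.81 to 25.6 CPM in PWK (median 17.2). In the 46 other libraries it ran from 0 to 0.232 CPM (median 0.0232), with no read in 20 of them and at most 8 in any. The groups were thus separated by a gap with no library in it, and the difference was 8.16 ± 0.32 (adjusted p = 1.24e-29).

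Mx2 (chr16:97535308-97560900, plus strand) encodes a GTPase that interferon induces. It ran from 4.34 to 180 CPM in Cast (median 9.21), from 8.21 to 28.9 CPM in PWK (median 14) and from 0 to 3.65 CPM in the others (median 1.7). NZO had the lowest mean of the 6, at 0.0643 CPM. The difference was 4.62 ± 0.25 (adjusted p = 2.1e-23). It came to 3.44 without Cast replicates 5 and 6, in which Mx2 was highest, and to 3.99 without replicate 5 alone. Without NZO it was 3.81, and Mx2 was called each time. By limma on the 8 strain means Mx2 was not called (adjusted p = 0.166).

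The other genes of this set above all 46 libraries differed by less than Chrnb4. Trim75, of the tripartite motif family, reached 0.485 CPM in Cast and 0.887 CPM in PWK against at most 0.126 CPM elsewhere (4.98 ± 0.35). Pmel, the melanosome fibre gene, ran from 0.858 to 2.02 CPM in Cast and from 1.84 to 3.62 CPM in PWK, with 0.828 CPM as the highest of the others (2.08 ± 0.13). Bdh2, a short-chain dehydrogenase gene, differed by 2.05 ± 0.14. Slc25a53, an X-linked gene of the mitochondrial carrier family, differed by 0.99 ± 0.06, and Cdc26, which encodes a subunit of the anaphase-promoting complex, by 0.59 ± 0.03. In Slc25a53 and Cdc26 the libraries lay close together within each side, so a difference below 1 on the log2 scale still separated all of them. Sfi1, a gene of the centrosome, differed by 2.12 ± 0.07, and the other 5 genes of this set have clone or predicted names.

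St6galnac5 (chr3:152817081-152982246, minus strand), a sialyltransferase gene, had the largest negative difference of the 42. It ran from 0 to 0.584 CPM in Cast (median 0.0373) and from 0 to 0.7 CPM in PWK (median 0.011), against 2.21 to 123 CPM in the others (median 9.49), with strain means from 4.49 CPM in B6 to 90.5 CPM in WSB. The difference was -6.58 ± 0.42 (adjusted p = 4.03e-20), or -7.63 without PWK replicate 1. Zfp783, a zinc finger gene (chr6:47943171-47955913, plus strand), stood at 0.028 to 0.299 CPM in Cast and 0.0516 to 0.366 CPM in PWK against 3.18 to 8.62 CPM (-4.83 ± 0.18). Both genes stayed below 1 CPM in every Cast and PWK library.

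The low set also held 2 cation channel genes and an immune receptor gene. Trpv1, the capsaicin and heat receptor (chr11:73234292-73261242, plus strand), ran from 0.0748 to 0.716 CPM in Cast, from 0.265 to 0.818 CPM in PWK and from 0.984 to 6.97 CPM in the others (-3.19 ± 0.23). Hcn4, the pacemaker channel, had medians of 0.298 CPM in Cast and 0.205 CPM in PWK against 2.12 CPM (-3.13 ± 0.21). Lag3 (chr6:124904361-124911705, minus strand), an inhibitory receptor of T cells, ran from 0.318 to 0.977 CPM in Cast, from 0.0876 to 0.615 CPM in PWK and from 1.4 to 5.06 CPM in the others (-2.85 ± 0.17). It fell with the list of T and NK cell genes given later. In bulk tissue, fewer cells of a type and less RNA per cell cannot be told apart.

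Firre, which is X-linked and gives a noncoding RNA (chrX:50555744-50635321, minus strand), had the highest CPM of the 29 low genes in the 6 other strains. It stood at 8.03 to 12.1 CPM in Cast (median 11), 4.19 to 6.58 CPM in PWK (median 5.69) and 33.7 to 74.9 CPM in the others (median 56.7), which left wide gaps on a log scale (-2.87 ± 0.067, adjusted p = 8.26e-41). Dfna5, which encodes a pore-forming gasdermin, ran from 1.26 to 3.03 CPM in Cast and from 0.394 to 0.851 CPM in PWK against 4.61 to 18.1 CPM (-2.97 ± 0.12). Here Cast and PWK did not overlap each other either. Smaller differences were those of Tspan32, a tetraspanin gene (-1.65 ± 0.15), the kinase gene Aatk (-1.41 ± 0.11), Mthfsd (-1.08 ± 0.061) and Katna1, the catalytic subunit of katanin, which severs microtubules (-0.95 ± 0.056).

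**Figure D1:**
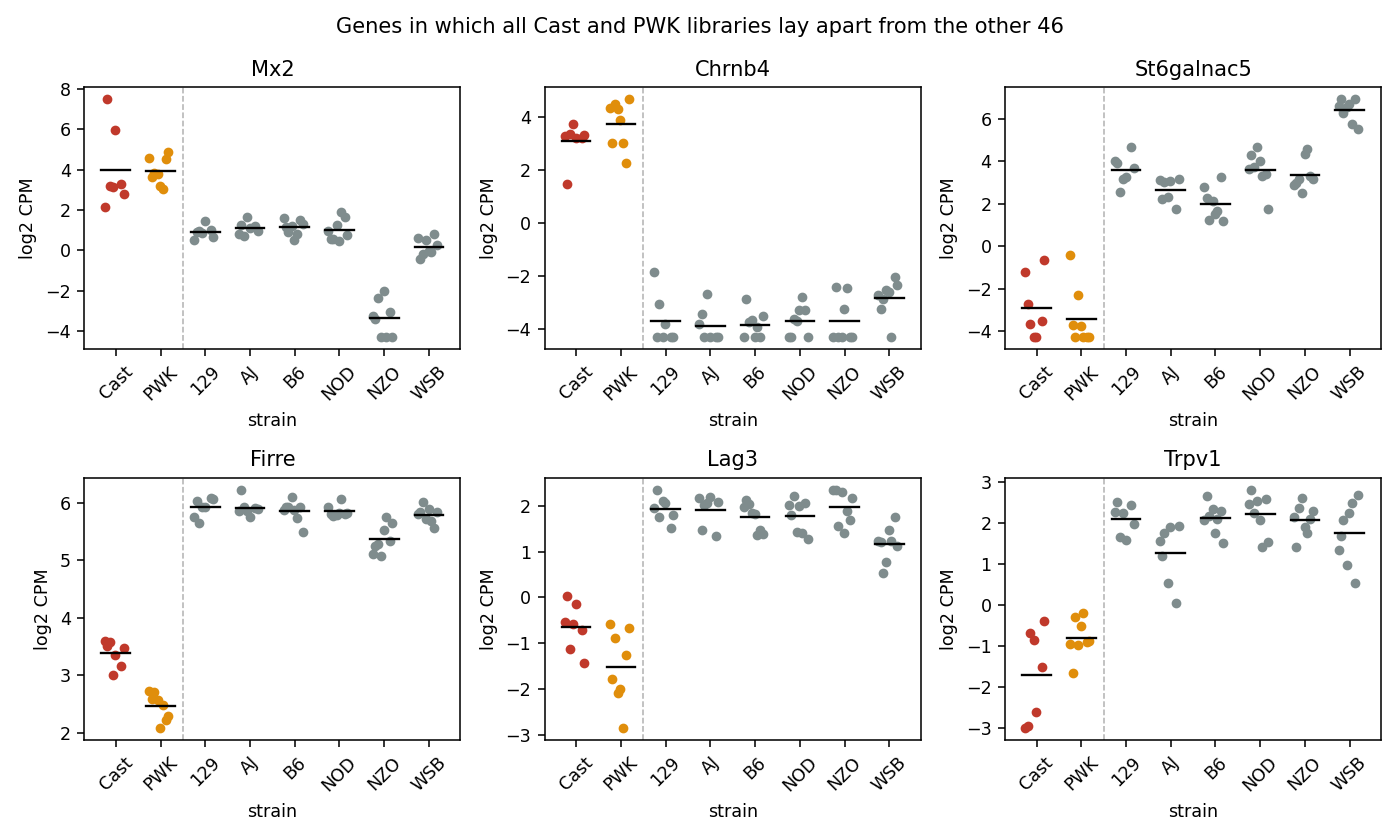
Expression of 6 genes in each library (log2 CPM, prior count 2) by strain, with Cast in red, PWK in orange and the other strains in grey; bars are strain means. In each panel every Cast and PWK point lies on 1 side of all 46 grey points, and the 2 high Cast points of Mx2 are replicates 5 and 6.

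In the genes that share reads, some genes traded places with a near-identical copy. A search of GENCODE transcripts for copies at 95% identity or more over at least 50% of the shorter transcript found one for 52 of the 62 genes, and in 40 of these the summed CPM of gene and copies differed by less than 2-fold between the 2 sides. The 40 are not a count of exchanges, and they hold both members of pairs such as Rpl17 and Rpl17-ps8. Where the copy is far more abundant, the sum could hardly change. Psme2b stood at 0.0284 CPM in Cast and PWK and 2.76 CPM in the others, beside Psme2 at 69.5 and 77.5 CPM. In other cases gene and copy were both higher, as in Pisd-ps1 (52.4 against 14.5 CPM) and Pisd (61.5 against 50.1 CPM). Among the 42 genes that do not share reads, 4 had a copy and in 1 the sum stayed within 2-fold. The pairs are shown because the reads of a pair, more than those of either gene, were level across strains.

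Several pairs joined a ribosomal protein gene to its processed pseudogene. Rpl17 (on chromosome 18) stood at 242 CPM in Cast and 206 CPM in PWK and at 4.62 to 8.2 CPM in the 6 others, as strain means, while Rpl17-ps8 (chrX:96484859-96485479, plus strand, 99.68% identical) stood at 2.77 and 7.52 CPM in Cast and PWK against 190 to 242 CPM. Their sum was 245 CPM in Cast, 213 CPM in PWK and 195 to 249 CPM in the others, so the pair as a whole overlapped between the sides. Rpl19 with Rpl19-ps11 (99.83% identical) went from 17.6 and 218 CPM in B6 to 299 and 1.44 CPM in Cast. Rpl27 with Rpl27-ps3 (100% identical) went from 11.4 and 91.5 CPM in B6 to 125 and 0.984 CPM in Cast. By edgeR, Rpl17 differed by 5.25 ± 0.088 and Rpl17-ps8 by -5.51 ± 0.37. Which of the 2 genes gives rise to the RNA in a strain cannot be told apart from how reads were assigned.

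The same held outside the ribosome. AK157302 stood at 30 CPM in Cast and 67.1 CPM in PWK but at no more than 0.149 CPM in the others, and Isca1, an iron-sulfur cluster assembly gene 99.26% identical to it, stood at 93.7 and 57.5 CPM against 96.3 to 159 CPM. For mt-Co2, the mitochondrial gene of cytochrome oxidase subunit 2, the strain means were 16.8 CPM in Cast and 38.2 CPM in PWK against 1503 to 4291 CPM. Its nuclear copy Gm28661 on chromosome 1 (100% identical over the aligned part) took 6256 CPM in Cast and 10410 CPM in PWK against 2221 to 6635 CPM. The low value of mt-Co2 is thus not a low value of the pair, which summed to 6273 and 10448 CPM against 3724 to 10926 CPM.

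**Figure D2:**
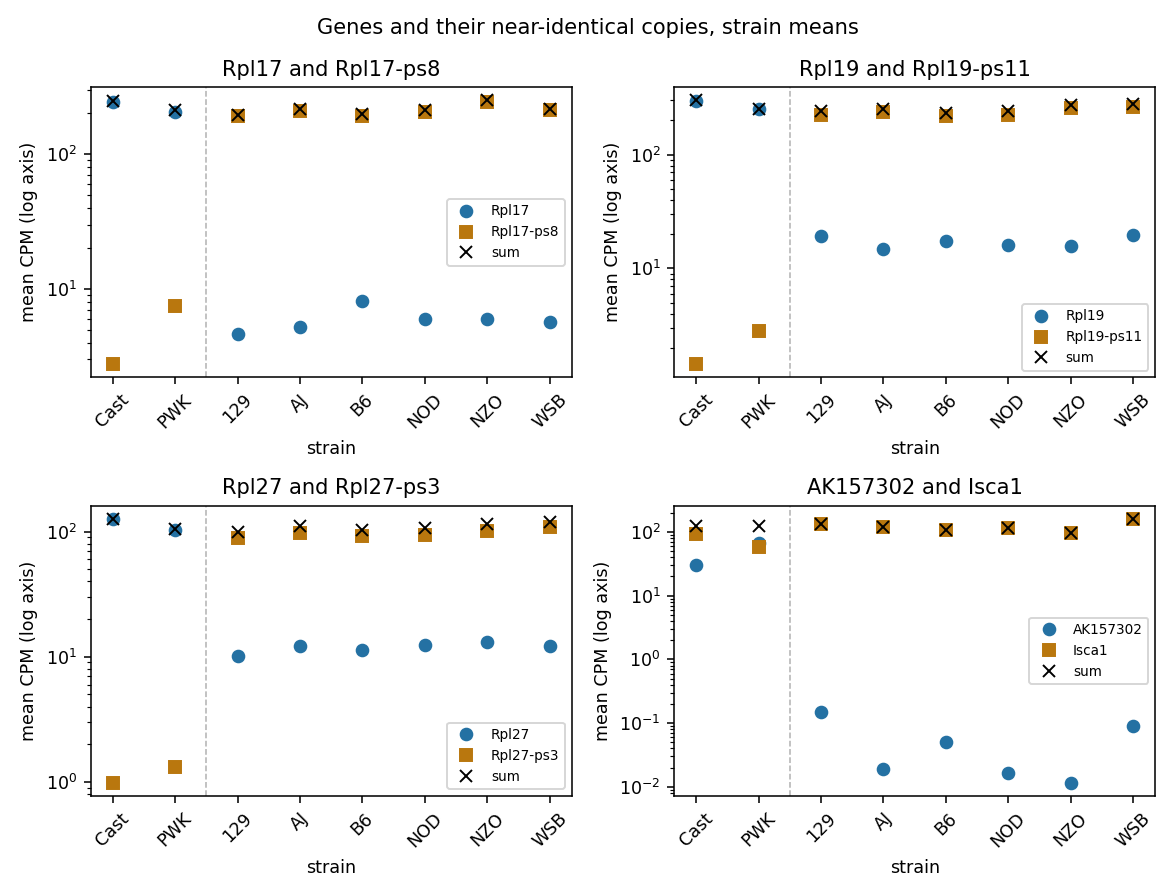
Mean CPM of 4 genes, of a near-identical copy of each and of their sum by strain, on log axes. In Cast and PWK the gene and copy exchange levels or, for AK157302 and Isca1, approach each other, while the crosses for the sum stay within 2-fold over the 8 strains.

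Some genes that do not share reads had large differences without a clean separation. Calb1, a calcium-binding protein gene, ran from 11 to 153 CPM in Cast (median 36.5) but from 0.0292 to 0.166 CPM in PWK and from 0 to 0.24 CPM in the others, so its difference of 5.80 ± 0.46 rested on Cast (10.33) and hardly on PWK (1.27). Mmd2 ran from 3.41 to 74.5 CPM in Cast, from 1.49 to 147 CPM in PWK and from 0 to 8.49 CPM in the others (5.28 ± 0.48). S100b, a calcium-binding protein gene of Schwann cells and fat cells, ran from 10.2 to 161 CPM, 128 to 394 CPM and 0.642 to 144 CPM (3.67 ± 0.23). In Mmd2 and S100b the sides overlapped, although all 15 libraries were above the median of the 46.

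Several of the large positive differences were in genes best known from liver. Cbs, which makes cystathionine from homocysteine, ran from 6.47 to 47.6 CPM in Cast, from 3.73 to 15.5 CPM in PWK and from 0.199 to 12.4 CPM in the others (2.56 ± 0.22). Slc27a2, a fatty acid transporter and activating enzyme, had medians of 12.8 and 13.6 CPM against 2.69 CPM (2.78 ± 0.43), and Apoc3, a lipoprotein component, of 24.7 and 5.52 CPM against 1.48 CPM (3.05 ± 0.32). Other values turned on single libraries. Itih4, a plasma protein gene, ran from 7.96 to 1145 CPM in Cast, and its difference of 3.98 ± 0.37 came to 2.52 without Cast replicates 5 and 6 and to 3.26 without replicate 6. Cps1, of the urea cycle, and Fga, a fibrinogen gene, differed by 3.24 ± 0.66 and 2.70 ± 0.60. Without Cast replicate 3 Cps1 came to 1.7. Of 19 liver markers 11 were higher and 3 lower in the pair, against 32% and 27.4% of all genes, with 4 higher once Cast replicate 3 was left out. In libraries with high Xist alone, a split described with the mitochondrial genes, 12 were higher and 2 lower (median 2.92), and in those with low Xist none was higher and 3 were lower (median -0.19). The list mean lay within the range of the 46 libraries in all 15. The part of liver tissue in these values was not tested.

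Among genes with large negative differences, several belong to myeloid cells. Ms4a7, a macrophage membrane protein gene, ran from 0 to 0.15 CPM in Cast (median 0.0598), from 0.0774 to 2.33 CPM in PWK (median 0.535) and from 1.61 to 87.8 CPM in the others (median 8.5), a difference of -5.36 ± 0.32 (adjusted p = 3.99e-21). Cd300ld, a myeloid receptor gene, had medians of 0.557 CPM in Cast and 0.491 CPM in PWK against 11.5 CPM (-3.96 ± 0.28). Ms4a14 stood at up to 0.12 CPM in Cast and 0.488 CPM in 7 PWK libraries against 0.996 to 49.4 CPM, but PWK replicate 5 had 16.6 CPM. Without that library the difference of -3.72 ± 0.54 was -5.41.

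Sucnr1, Gabra3, Ubd, Mogat2 and Tph2 had large negative differences too. Sucnr1, the succinate receptor (chr3:60081869-60087566, plus strand), ran from 1.57 to 20.4 CPM in Cast (median 6.74), from 0.387 to 1.68 CPM in PWK (median 1.26) and from 7.41 to 67.7 CPM in the others (median 30), with -3.39 ± 0.24. Gabra3, a GABA receptor subunit gene, had medians of 0.663 and 0.718 CPM against 14.6 CPM (-3.70 ± 0.27), and Ubd, which encodes a ubiquitin-like protein, of 1.94 and 2.77 CPM against 13.7 CPM (-2.93 ± 0.33). Mogat2, an enzyme of triglyceride synthesis from monoacylglycerol, ran from 0.199 to 0.796 CPM in Cast, from 2.19 to 7.07 CPM in PWK and from 1.93 to 38.4 CPM in the others (-2.87 ± 0.23). Tph2, the neuronal enzyme of serotonin synthesis, had 0.0289 CPM in 1 Cast library and none in the rest, at most 0.0584 CPM in PWK, and 0 to 152 CPM in the others. Its difference was -8.09 ± 1.28. NZO had the highest mean of the 6, at 63.4 CPM, and WSB was at 0.0216 CPM; the difference was -7.18 without NZO and -9.42 without WSB.

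Well expressed genes differed too. Vegfa, the angiogenic growth factor, ran from 246 to 488 CPM in Cast (median 363), from 250 to 499 CPM in PWK (median 355) and from 93.5 to 334 CPM in the others (median 174), a difference of 1.05 ± 0.088 (adjusted p = 3.05e-15). Phyh, which starts the breakdown of phytanic acid in peroxisomes, ran from 146 to 493 CPM, 243 to 612 CPM and 71.2 to 225 CPM (1.34 ± 0.095). Gpt2, the mitochondrial alanine transaminase (1.55 ± 0.12), and Fmo2, a flavin monooxygenase (1.42 ± 0.15), were also higher. Nid1, a basement membrane protein gene, ran from 241 to 580 CPM in Cast, from 404 to 1116 CPM in PWK and from 695 to 2031 CPM in the others (-1.14 ± 0.10). Anxa2, an annexin gene, had medians of 365 and 594 CPM against 1042 CPM (-1.07 ± 0.18). In Vegfa and Phyh all 15 libraries were above the median of the 46, and in Nid1 none was.

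Lists of genes for cell types and pathways were then read as counts of called members against the share called among all genes, which was 32% higher and 27.4% lower. Lists of lymphocytes and antigen presentation lay on the low side. Lists of mitochondrial function lay on the high side, and those of fat storage lay on both.

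**Figure D3:**
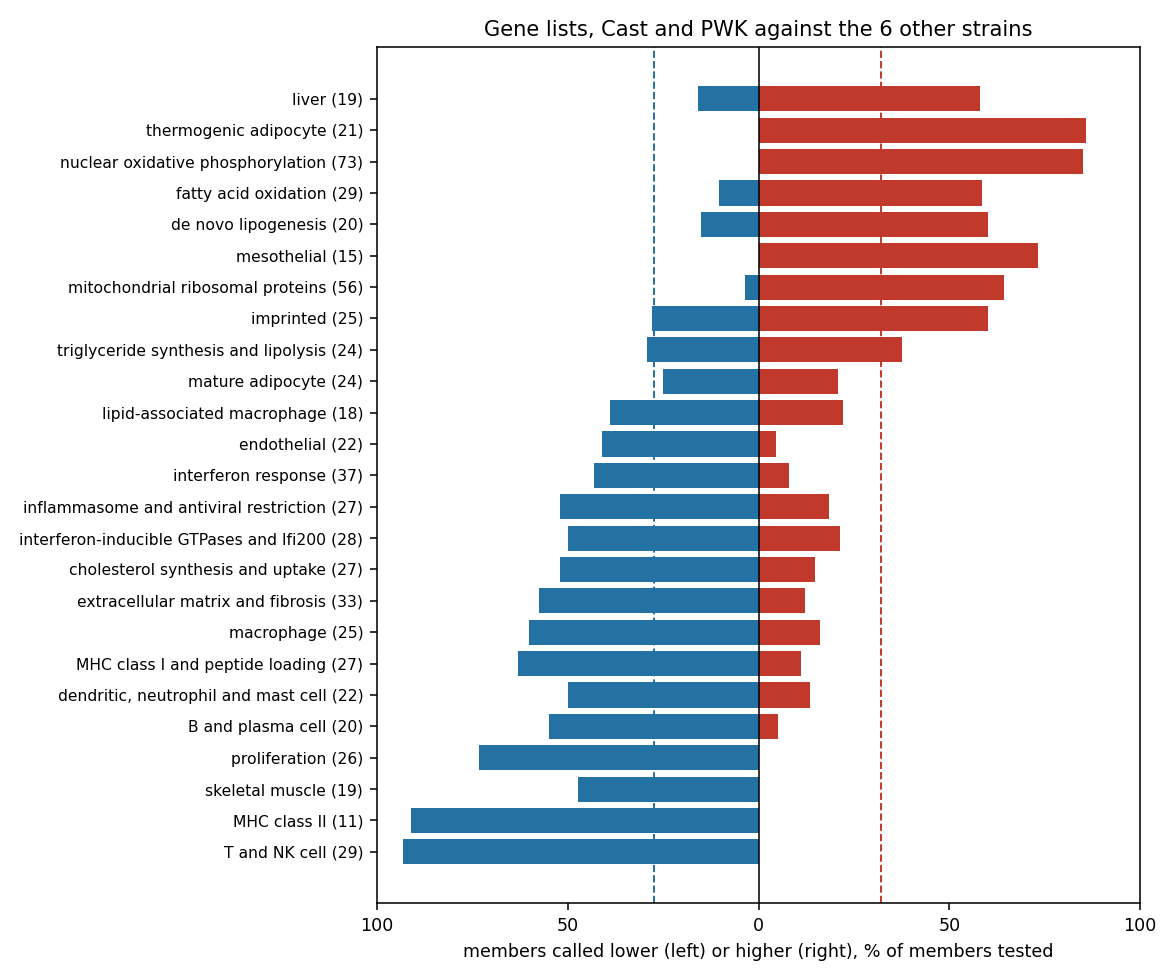
Share of tested members of each list called lower (blue, left) or higher (red, right) in Cast and PWK, in percent, with the number tested in brackets; dashed lines are the shares among all genes tested, 27.4% lower and 32% higher. T and NK cell and MHC class II genes reach furthest to the left, thermogenic and oxidative phosphorylation genes furthest to the right.

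T and NK cell genes were low in both strains. Of 29 tested, 27 fell and none rose (median -1.61, against 0.04 over all genes), and 23 fell by at least 1 on the log2 scale. The mean log2 CPM of the list ran from -2.84 to -1.46 in Cast (median -2.26), from -1.59 to -0.33 in PWK (median -0.93) and from -0.82 to 1.51 in the others (median -0.24). All 15 libraries lay below the median of the 46, and 11 lay below every one of them. Set side by side, Cast had 27 members lower (median -2.29) and PWK 19 lower and 1 higher (median -0.84). The levels were small throughout, since the members of this list summed to at most 113 CPM in any library.

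The genes that follow from this list were chosen after their values were seen, as none reached the 5 CPM that the naming rule asks for. Cd3e, a chain of the T cell receptor complex, ran from 0 to 0.292 CPM in Cast, from 0.444 to 0.789 CPM in PWK and from 0.374 to 2.73 CPM in the others (-1.87 ± 0.22, adjusted p = 3.27e-10). Lck, the kinase that starts T cell receptor signalling, ran from 0.292 to 0.778 CPM, 0.43 to 2.31 CPM and 1.38 to 8.25 CPM (-1.61 ± 0.16). Il2rb, a receptor chain for interleukins 2 and 15, differed by -1.87 ± 0.18. Gzma, a granzyme of cytotoxic cells, had medians of 0.0374 CPM in Cast and 0.0939 CPM in PWK against 0.618 CPM (-3.21 ± 0.32). In each of the 4 genes Cast lay below PWK, and PWK below all 6 strain means.

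The MHC class II list, whose products show peptides to helper T cells, was low to a similar degree. Of 11 tested, 10 fell and none rose (median -1.58). Cast had a median of -2.45 and PWK one of -0.64. The list mean ran from -0.44 to 2.37 in Cast (median 1.19), from 1.99 to 3.48 in PWK (median 2.72) and from 1.61 to 5.09 in the others (median 3.54). All 15 libraries lay below the median of the 46 and 4 below every one. WSB was the nearest of the 6, with list means of 1.61 to 3.01, so PWK overlapped WSB. Cd74, the invariant chain that guards the peptide groove, ran from 14.1 to 112 CPM in Cast (median 55.5), from 122 to 276 CPM in PWK (median 210) and from 140 to 1405 CPM in the others (median 367), a difference of -1.93 ± 0.17 (adjusted p = 1.01e-14). H2-DMa, which loads the peptide, differed by -1.37 ± 0.14.

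H2-Aa, H2-Eb1 and Ciita were chosen after their values were seen. For H2-Aa and Ciita PWK was not beyond all 6 strains, and for H2-Eb1 neither Cast nor PWK was. H2-Aa, the alpha chain of the A molecule, ran from 6.46 to 55.2 CPM in Cast, from 81.1 to 194 CPM in PWK and from 81.2 to 630 CPM in the others (-1.81 ± 0.17). Ciita, the class II transactivator, ran from 0.15 to 3.2 CPM, 2.85 to 9.12 CPM and 2.7 to 39.3 CPM (-1.93 ± 0.18). H2-Eb1, the beta chain of the E molecule, ran from 5.16 to 34.8 CPM in Cast, from 2.74 to 17.5 CPM in PWK and from 1.17 to 755 CPM in the others. WSB was low at 1.57 CPM on average, and the difference of -2.95 ± 0.22 was -4.05 without WSB.

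The promoters of class II genes share an element, the Y box, which reads GATTGG or, on the other strand, CCAATC. It was searched for by its letters on both strands of the RefSeq windows from 250 bases before to 50 after the start (build GRCm38.p6, the B6 sequence). It was present in 8 of the 8 class II genes with a window, of 11 tested, and in 2812 of 12631 tested genes with one (22.3%). The windows of genes that fell are printed 5′ to 3′ with matches in capitals, to show the element that low and less low members have in common; sequence differences of Cast and PWK in them were not examined.
H2-Aa (chr17:34287774-34288073, minus strand): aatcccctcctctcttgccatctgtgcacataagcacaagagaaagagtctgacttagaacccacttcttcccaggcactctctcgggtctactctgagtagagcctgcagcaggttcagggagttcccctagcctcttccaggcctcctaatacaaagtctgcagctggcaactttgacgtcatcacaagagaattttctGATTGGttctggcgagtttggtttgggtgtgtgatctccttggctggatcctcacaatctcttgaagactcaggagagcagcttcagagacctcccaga
H2-Eb1 (chr17:34305617-34305916, plus strand): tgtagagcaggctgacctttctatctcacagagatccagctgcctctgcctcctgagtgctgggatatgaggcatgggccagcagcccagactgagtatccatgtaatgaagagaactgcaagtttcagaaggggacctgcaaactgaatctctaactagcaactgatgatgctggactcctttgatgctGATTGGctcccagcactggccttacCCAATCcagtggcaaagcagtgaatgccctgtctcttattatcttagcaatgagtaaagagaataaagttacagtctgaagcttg
H2-DMb1 (chr17:34152941-34153240, plus strand): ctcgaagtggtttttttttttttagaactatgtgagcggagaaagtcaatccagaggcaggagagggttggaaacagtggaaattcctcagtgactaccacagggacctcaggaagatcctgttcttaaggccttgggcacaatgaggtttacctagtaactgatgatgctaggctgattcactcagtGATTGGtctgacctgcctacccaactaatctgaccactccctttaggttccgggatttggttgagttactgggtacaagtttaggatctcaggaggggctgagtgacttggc

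MHC class I genes, which show peptides to cytotoxic cells, followed in smaller steps. Of 27 tested, 17 fell and 3 rose (median -0.47), and 10 of the 15 libraries had a list mean below all 46. The list mean ran from 3.87 to 4.84 in Cast, from 4.45 to 4.98 in PWK and from 4.61 to 5.62 in the others. H2-K1, a classical class I gene that shares reads, ran from 116 to 264 CPM in Cast, from 225 to 368 CPM in PWK and from 201 to 1012 CPM in the others (-1.15 ± 0.10). H2-Q4 (-1.25 ± 0.10) and H2-Q7 (-2.72 ± 0.17) share reads as well. Tap1, a subunit of the peptide transporter, had medians of 17.4 and 24.5 CPM against 32.6 CPM (-0.74 ± 0.088). Of the 27 members 15 share reads, and among those left without these, 5 were lower and 2 higher.

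**Figure D4:**
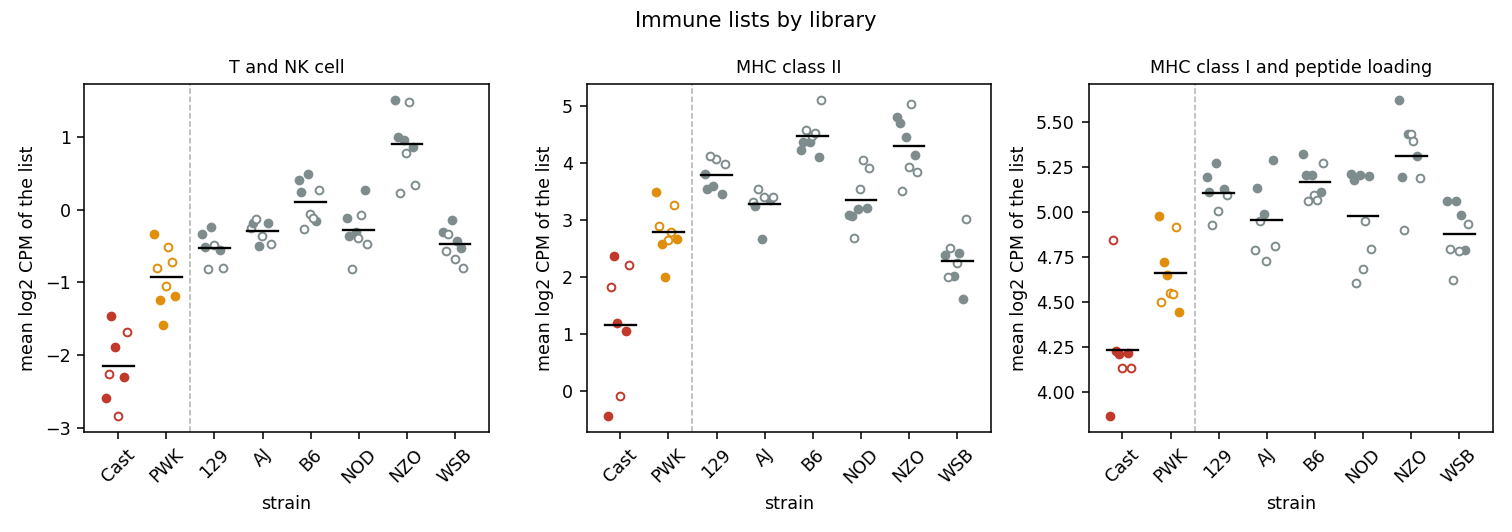
Mean log2 CPM of 3 immune gene lists in each library by strain; bars are strain means, and filled and open points are libraries with high and low Xist, the RNA of the inactive X chromosome. For T and NK cell genes 11 of the 15 Cast and PWK points lie below all others, for MHC class II genes 4 and for MHC class I genes 10.

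Interferon response genes were mixed and hung on few libraries. Of 37 tested, 16 fell and 3 rose (median -0.24), which is 43.2% lower against 27.4% of all genes. Without Cast replicate 5 the number lower was 29, and without Cast replicates 5 and 6 it was 31. Both are among the 3 Cast libraries with low Xist, a split described with the mitochondrial genes. The list means of these 3 libraries had a median of 3.08 and a highest value of 4.73. The low-Xist libraries of the other strains had a median of 3.45. Ifit3, an interferon-induced gene that shares reads, stood at 39.3 CPM in Cast replicate 5 and at 1.51 to 4.41 CPM in the other Cast libraries. In PWK it ran from 1.72 to 3.37 CPM and in the others from 3.22 to 34 CPM. Its difference of -1.69 ± 0.25 came to -2.49 without Cast replicate 5. Cxcl9, a chemokine that draws T cells, had medians of 6.08 and 13.9 CPM against 36.2 CPM (-1.53 ± 0.21). Ifi27 was low in PWK (-2.05) and less so in Cast (-0.34). Mx2, described above, was the member farthest the other way.

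The interferon-stimulated response element was searched for as TTTC, any 2 bases and TTTC again, on both strands of the same windows. It was found in 15 of the 26 interferon response genes with a window and in 479 of the 12631 tested genes (3.79%). The windows of Cxcl9 and Ubd did not hold these letters, and Mx2 had no window. That of Ifit3 is printed, as it holds 2 matches.
Ifit3 (chr19:34583279-34583578, plus strand): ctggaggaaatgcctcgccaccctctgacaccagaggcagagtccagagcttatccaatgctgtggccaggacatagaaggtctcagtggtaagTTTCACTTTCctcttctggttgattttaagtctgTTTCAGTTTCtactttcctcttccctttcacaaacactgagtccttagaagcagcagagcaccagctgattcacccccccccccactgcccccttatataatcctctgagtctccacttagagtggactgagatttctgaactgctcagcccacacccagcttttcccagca

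Lists of innate defence were mixed too. Interferon-inducible GTPases and Ifi200 genes fell in 14 of 28 and rose in 6, and inflammasome and antiviral restriction genes fell in 14 of 27 and rose in 5. Naip2 and Naip5, receptors for bacterial proteins that share reads, ran from 1.06 to 5.4 CPM and from 1.29 to 4.19 CPM in Cast, and their differences were -2.25 ± 0.18 and -1.72 ± 0.15. Samhd1, which limits viruses by depleting nucleotides, ran from 57.7 to 74.6 CPM in Cast (median 66.6), from 62.3 to 85.2 CPM in PWK (median 76.7) and from 72.9 to 291 CPM in the others (median 113), with -0.75 ± 0.064. In libraries with high Xist alone, a split described with the mitochondrial genes, 18 of the GTPase list fell and 2 rose (median -0.75), and in those with low Xist 8 fell and 8 rose (median 0.03). For the inflammasome list 15 fell and 3 rose (median -0.66), and 13 fell and 7 rose (median -0.01). Of the 28 GTPase and Ifi200 genes 21 share reads, and of the 27 inflammasome genes 12 do. Among the members left without these, 4 of the GTPase list and 6 of the inflammasome list were lower.

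Macrophage genes fell in 15 of 25 gene identifiers and rose in 4 (median -0.40), but 6 were lower without NZO. By the same split, 19 fell with high Xist and 7 with low. Besides Ms4a7 the list held Fcgr1, a high-affinity Fc receptor gene, at -0.85 ± 0.27. That call was lost without NZO (-0.32) and the value was -1.98 without Cast replicates 5 and 6. Lyve1, of perivascular macrophages and lymphatic vessels, was higher at 0.78 ± 0.15, and Cd163, a scavenger receptor of resident macrophages, at 0.96 ± 0.16, with medians of 171 CPM in Cast and 164 CPM in PWK against 110 CPM.

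Proliferation genes fell in 19 of 26 and rose in none (median -0.81). Mki67 and Top2a, markers of dividing cells chosen after their values were seen, differed by -1.34 ± 0.24 and -1.29 ± 0.22. Both were low in Cast (-2.25 and -2.26) and not in PWK (-0.44 and -0.32). B and plasma cell genes fell in 11 of 20 and rose in 1. Cast alone had 17 lower, while PWK had 1 lower and 3 higher, so this list did not move in both strains.

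Genes of thermogenic adipocytes, which burn fuel for heat, were higher on average but not in every library. Of 21 tested, 18 rose and none fell (median 1.49). The list mean ran from 2.39 to 5.06 in Cast (median 3.22), from 1.12 to 4.88 in PWK (median 2.95) and from 0.92 to 4.62 in the others (median 2.14). Only 4 of the 15 libraries lay above all 46, and 4 lay below their median. Elovl3, a fatty acid elongase of active brown fat, ran from 4.75 to 152 CPM in Cast (median 64.6), from 1.4 to 76.9 CPM in PWK (median 21.9) and from 0.0784 to 136 CPM in the others (median 1.43), a difference of 3.22 ± 0.47. Ucp1, the uncoupling protein that makes the heat, ran from 3.55 to 1505 CPM, 0.131 to 1206 CPM and 0.0774 to 1872 CPM (2.58 ± 0.69, adjusted p = 0.00118). Elovl3, Ucp1 and Cidea (2.22 ± 0.44) were chosen after their values were seen. WSB had the highest mean of the 6 in Ucp1, at 515 CPM, above both Cast (415.7) and PWK (451.1). Without WSB the Elovl3 difference was 3.97. By limma on the deposited variance-stabilised values neither Ucp1 (0.93, adjusted p = 0.331) nor Cidea (1.05, adjusted p = 0.0627) was called.

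Nuclear genes of oxidative phosphorylation rose in 62 of 73 and fell in none (median 0.59). Mitochondrial ribosomal protein genes rose in 36 of 56 and fell in 2 (median 0.28). Genes of fatty acid oxidation rose in 17 of 29 and fell in 3 (median 0.53). Both strain means lay above all 6 in 7.76% of all genes. The same held for 3 of the 73 oxidative phosphorylation, 6 of the 56 ribosomal, 0 of the 29 fatty acid oxidation and 1 of the 21 thermogenic genes. The ribosomal share is above that of all genes and the others are below it, all on small counts. WSB was as high as the pair in oxidative phosphorylation and higher in fatty acid oxidation. Cox7a2, a subunit of cytochrome oxidase, ran from 96 to 196 CPM in Cast (median 163), from 92.1 to 257 CPM in PWK (median 154) and from 50.9 to 189 CPM in the others (median 87.5), with 0.74 ± 0.094 (adjusted p = 1.54e-09). Mrps9, of the small mitochondrial ribosomal subunit, had medians of 45.9 and 44.7 CPM against 23.5 CPM (0.88 ± 0.089). Cycs, the cytochrome c gene, which shares reads, differed by 1.48 ± 0.12. Ppargc1a, a coactivator of mitochondrial genes chosen after its values were seen, had medians of 19.2 and 11.2 CPM against 5.11 CPM (1.38 ± 0.21). Decr2, of peroxisomal fatty acid oxidation, went the other way, with medians of 14.4 and 9.52 CPM against 23.7 CPM (a difference of -1.001 ± 0.097).

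These mitochondrial lists moved with Xist, the RNA that coats an inactive X chromosome. Xist split the 61 libraries into 31 high and 30 low, with 3 or 4 of each kind in every strain and a gap of 2.98 on the log2 scale between them. Cast replicate 8, counted as high, lay between the others at 5.78, with the next libraries at 2.8 below and 8.62 above. Without it, 18 thermogenic, 71 oxidative phosphorylation and 22 fatty acid oxidation genes rose among the libraries with high Xist. In the libraries with high Xist alone, 19 of 21 thermogenic genes rose (median 1.78), 71 of 73 oxidative phosphorylation genes (median 0.80) and 23 of 29 fatty acid oxidation genes, while 3 of the latter fell (median 0.66). The thermogenic list mean then ran from 3.22 to 5.06 in Cast, from 4.03 to 4.88 in PWK and from 0.92 to 4.62 in the others. In those with low Xist alone, 8 thermogenic genes rose and 2 fell (median 0.33), 22 oxidative phosphorylation genes rose and 4 fell (median 0.18), and 9 fatty acid oxidation genes rose and 6 fell (median 0.09). There the thermogenic list mean ran from 2.39 to 3.12 in Cast, from 1.12 to 1.87 in PWK and from 1.07 to 2.77 in the others, so PWK lay within their range. The difference between these sets of libraries was not tested, and the split was made after seeing the data. Of the 18603 genes, 10443 were called in either direction with high Xist alone and 8762 with low Xist alone. The shares of 32% and 27.4% belong to the full set of libraries. They are not the background of counts in either Xist set, for these or other lists. T and NK cell genes fell in 27 of 29 with high and in 22 with low Xist, and MHC class II genes in 9 and in 10 of 11. Interferon response genes fell in 31 and in 8 of 37. The 3 Cast libraries with low Xist include replicates 5 and 6, which have the lowest oxidative phosphorylation means of Cast (6.07 and 6.3).

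**Figure D5:**
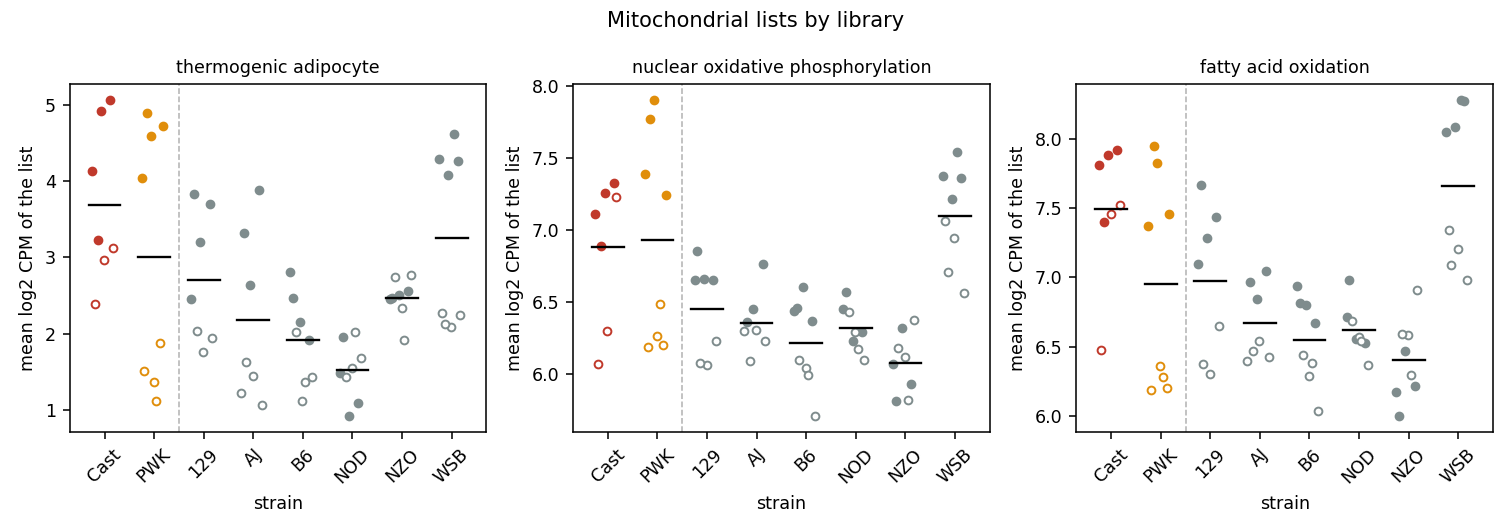
Mean log2 CPM of 3 mitochondrial gene lists in each library by strain; bars are strain means, filled points are libraries with high Xist and open points those with low Xist. The high Cast and PWK points are mostly filled, and the open PWK points lie at the level of open points in other strains; WSB is as high as the pair in oxidative phosphorylation and higher in fatty acid oxidation.

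Fat synthesis and storage genes did not move as 1 group. Genes of de novo lipogenesis rose in 12 of 20 and fell in 3 (median 0.53), but 6 rose without NZO and 7 without PWK replicate 2. Fasn, the fatty acid synthase, chosen after its values were seen, ran from 794 to 20689 CPM in Cast, from 3338 to 30859 CPM in PWK and from 161 to 41054 CPM in the others. Its difference of 0.76 ± 0.29 lost its call without NZO (0.44), without Cast replicate 3 (0.63), without PWK replicate 2 (0.62) and without PWK replicate 7 (0.66). Scd2, a desaturase gene that shares reads, was lower, with medians of 372 CPM in Cast and 929 CPM in PWK against 1576 CPM (-0.91 ± 0.26). Genes of triglyceride synthesis and lipolysis rose in 9 of 24 and fell in 7. Lpin1, which makes diacylglycerol, rose by 0.89 ± 0.12, and Dgat2, which adds the last fatty acid, had medians of 659 and 974 CPM against 1561 CPM (-0.58 ± 0.20). Dgat2 was no longer called without Cast replicates 5 and 6 (-0.43). Mature adipocyte genes rose in 5 of 24 and fell in 6. Without Cast replicates 5 and 6, 11 rose and 3 fell.

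Genes of cholesterol synthesis and uptake fell in 14 of 27 and rose in 4 (median -0.32). Taken alone, Cast had 13 lower and 4 higher (median -0.52), and PWK 5 lower and 4 higher (median -0.08). Fdps, which makes farnesyl diphosphate and shares reads, had medians of 28.3 and 35.9 CPM against 54.2 CPM (-0.74 ± 0.18). Extracellular matrix genes fell in 19 of 33 and rose in 4 (median -0.37), 21 of them lower in Cast and 2 in PWK. Postn, the matrix protein periostin, ran from 37.2 to 242 CPM in Cast (median 144), from 94.5 to 394 CPM in PWK (median 182) and from 204 to 796 CPM in the others (median 329), with -1.13 ± 0.17. The sides overlapped, although the medians of Cast and PWK lay below the lowest of the 46.

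Imprinted genes, expressed from 1 parental copy, moved in both directions. Of 25 tested, 15 rose and 7 fell (median 0.24). Plagl1, a zinc finger regulator of growth, ran from 55.9 to 203 CPM in Cast (median 110), from 45.2 to 263 CPM in PWK (median 96.1) and from 16.1 to 122 CPM in the others (median 43.2), with 1.34 ± 0.17. Cdkn1c, an inhibitor of the cell cycle that shares reads, had medians of 35.3 and 36 CPM against 11.9 CPM (1.79 ± 0.14), and Zim1 of 12.6 and 19.6 CPM against 7.58 CPM (1.36 ± 0.29). Peg10, derived from a retrotransposon, was lower at -1.32 ± 0.19, with medians of 10.6 and 11.1 CPM against 21.5 CPM. In Plagl1 and Cdkn1c all 15 libraries were above the median of the 46, and in Peg10 none was.

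Markers of tissues next to fat were read for what the dissection may have carried. Mesothelial genes, of the lining of the abdominal cavity, rose in 11 of 15 and fell in none (median 0.52), but 2 rose without NZO. Taken alone, Cast had 11 higher and PWK 1. Lrrn4 had medians of 47.5 and 58.8 CPM against 27 CPM (1.11 ± 0.21). Skeletal muscle genes fell in 9 of 19 and rose in none. That number was 5, with 2 higher, without 6 libraries rich in muscle or genital tract markers, none of them Cast or PWK, and 14 without Cast replicate 2. The part of adjacent tissue in other results was not tested.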

How the data were processed

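RNA-seq libraries were made from adipose tissue with a poly(A) mRNA kit and an ERCC spike-in, per the labels' protocols. The authors deposited 1 table of expected counts per gene for 61 libraries and 1 of log2-scale variance-stabilised values from DESeq2, per the submitters' processing notes, which give the build GRCm38 and no DESeq2 version. The aligner and counter are not given in the sources used here. The deposited tables also hold gene positions in megabases, which were not used as measurements. GRCm38 is the B6 genome, and loss of reads from other strains to mismatches was not tested. Of the deposited estimated counts, 21.1% were not whole (tolerance 1e-06).

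The expected counts were rounded to whole numbers. Of 21169 genes, 2566 were set aside by edgeR's filterByExpr. The remaining 18603 were fitted with edgeR 4.0.16 in R 4.3.3 (TMM scaling, 1 mean per strain, robust quasi-likelihood F-test, 2-sided, Benjamini-Hochberg threshold 0.05 over all genes). Adjusted p-values in the text are from this test unless another is named, and ± gives the standard error of a log2 difference. CPM per library used the same scaling, and list means used log2 CPM with a prior count of 2. limma 3.58.1, DESeq2 1.42.0 and sva 3.50.0 served alternatives, and blastn 2.17.0 the search for copies. On simulated counts for 18368 genes, 75% of genes changed by 0.5 and 96% of those changed by 1 on the log2 scale were recovered. Of the calls, 6.04% fell on unchanged genes. The simulated counts held no spread between strains apart from the changed genes. They therefore cannot show how many real calls stem from differences among single strains. Precision rests on depths of 19851552 to 61277574 counts.

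Members and gene lists (47 lists, 1121 genes, 1059 in the table) were chosen with earlier results of these data known. The naming rule took genes that were called, averaged at least 5 CPM and had both strain means beyond all 6: the 10 largest per direction, the 4 largest per direction among genes that share reads, the 5 most abundant per direction with a difference of at least 1, the 5 with the widest gap per direction, and up to 4 per list. In all 134 genes met it, and a few results are not reported here. RefSeq windows came from a table of promoters for GRCm38.p6.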

Additional observations from a re-analysis of the deposited data

Results flagged for a closer look

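Among 252 groups searched (the genes and lists given by library, in Cast and in PWK), 17 had 1 library far from the rest of its strain by Dixon's test. Chance flags about 1 in 20 groups. Cast replicate 5 accounted for 7 of the 17. In this library Chrnb4 was low at 2.73 CPM (9.31 to 13.5 in the other Cast libraries) and Ifit3 was high at 39.3 CPM (1.51 to 4.41). The ribosomal protein genes Rpl17 at 327 CPM (201 to 248), Rpl19 at 366 CPM (269 to 299) and Rpl27 at 184 CPM (99.7 to 130) were high there as well. Its mean log2 CPM was 4.84 for MHC class I and peptide loading genes (3.87 to 4.23) and 6.47 for fatty acid oxidation genes (7.4 to 7.91).

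In the other Cast libraries, Tph2 had 0.0289 CPM in replicate 8, which is 1 read, and none elsewhere. Ppargc1a stood at 70.3 CPM in replicate 2 (14.3 to 22.6), and the mesothelial list had a mean of 3.08 in replicate 7 (4.71 to 5.43).

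In PWK, replicate 6 had 256 CPM of Rpl17 (181 to 211), 0.0277 CPM of Hcn4 (0.148 to 0.263) and a mean of 0.33 for skeletal muscle genes (-1.95 to -1.28). Replicate 1 had 17.5 CPM of H2-Eb1 (2.74 to 5.09) and a mean of 1.97 for dendritic, neutrophil and mast cell genes (-0.82 to 0.43). Ms4a14 reached 16.6 CPM in replicate 5 (0 to 0.488), and Naip2 was at 0.399 CPM in replicate 2 (1.21 to 2.66).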

How the results depend on the processing

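Calls in the comparison of Cast and PWK with the 6 strains numbered 7077 (3897 higher, 3180 lower) among genes of at least 5 CPM, 269 (103 and 166) with strain means as the unit, and 2962 (1411 and 1551) at a log2 difference of at least 1. PWK alone had 5263 calls among genes of at least 5 CPM. Both strain means lay beyond all others in 827 genes above and 807 below at 5 CPM, in 3044 and 2674 without WSB, and in 255 and 407 with a gap of at least 0.5. The 5 CPM filter tests fewer genes, leaving out WSB removes a strain, and the limits of 1 and 0.5 are stricter by construction; for strain means as the unit the cause was not tested. The direction of Icam1 (0.46) reversed without Cast replicates 5 and 6 (-0.0386); the cause was not tested.

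Of 189 genes followed through the alternatives, all 189 kept direction and side of the threshold with DESeq2, with RLE size factors, with 2 surrogate variables, with Xist as a covariate and with libraries weighted equally. With limma on the deposited variance-stabilised values 181 did, and Ucp1 (0.93, adjusted p = 0.331), Fasn and Cidea were among 7 that lost their call. With strain means as the unit, tested by limma, 49 did and 140 lost their call. Among the 140 were Mx2 (adjusted p = 0.166), Vegfa (0.11), Cd74 (0.17), Cd3e (0.137), Cox7a2 (0.212), Ucp1 (0.701) and Lep (0.401). Chrnb4 (3.35e-05), Firre (0.000852) and St6galnac5 (0.0169) were among those that kept it. Without NZO 6 lost it, and without Cast replicates 5 and 6, 5 did. In libraries with high Xist alone 10443 genes were called and in those with low Xist alone 8762, a split chosen after seeing the data. Without the Cast library of intermediate Xist, the high set gave 10376.

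With the replicate number as a block, 11122 genes were called (5954 higher, 5168 lower). Libraries of different strains with the same number had a median correlation of deviations of 0.108 (186 pairs, -0.444 to 0.56). Those with different numbers had one of -0.0184. The number also went with Xist in some strains. In NOD and NZO, among others, the lower numbers all had high Xist and the later ones all low Xist. In AJ, Cast, PWK and WSB the order was mixed. As the numbers are tied to Xist in part, these correlations cannot decide whether they pair the samples.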

Other observations

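Genes of detoxification differed as well. Of 40 genes of xenobiotic and steroid metabolism 17 were higher and 6 lower in Cast and PWK (42.5% and 15%, against 32% and 27.4% of all genes). Aox3, an aldehyde oxidase gene, ran from 10.7 to 34.7 CPM in Cast (median 25.7), from 5.68 to 24.4 CPM in PWK (median 11.1) and from 0.34 to 13.1 CPM in the other strains (median 4.52), a difference of 2.16 ± 0.18. Cyp2j6, a cytochrome P450 gene, went the other way, with medians of 12.4 and 10.8 CPM against 28.3 CPM (-1.37 ± 0.077). Of 45 glutathione and antioxidant genes 23 were higher and 12 lower. Mgst2, a microsomal glutathione transferase gene, had medians of 34.6 CPM in Cast and 15.7 CPM in PWK against 12.9 CPM (1.18 ± 0.12). Its difference was 1.58 in Cast and 0.78 in PWK.

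Circadian clock genes were higher in 9 of 19 and lower in 1 (47.4% and 5.26%, against 32% and 27.4% of all genes). Hlf, a clock output factor gene, ran from 14.1 to 30.2 CPM in Cast (median 20.1) and from 3.45 to 16.6 CPM in the others (median 8.46), with a median of 13.6 CPM in PWK (1.11 ± 0.12). The time of day of collection is not in the labels. Genes of the unfolded protein response were higher in 12 of 24 and lower in 1 (50% and 4.17%). Of 29 complement genes 10 were higher and 11 lower (34.5% and 37.9%), the first close to the share of all genes. C3, the central component, differed by 0.69 ± 0.19. Cd59a, which guards cells against complement, had medians of 38.3 and 42.7 CPM against 102 CPM (-1.28 ± 0.10). The alpha globin genes Hba-a1 and Hba-a2, which share reads, differed by 1.48 ± 0.27 and -1.50 ± 0.19, with Hba-a1 at 0.447 to 36.6 CPM in Cast and 381 to 1682 CPM in PWK. These lists were not refitted with libraries left out.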
